A study of Mus musculus with 6 samples.

Results

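The variable (V) gene segments of the T cell receptor were described in mouse lung innate lymphoid cells (ILCs), lymphocytes defined by the lack of a rearranged antigen receptor. Rows were taken where the gene symbol started with Trav, Trbv, Trdv, Trgv or Tcrg-V and where at least 10 counts had been assigned over the 6 libraries. This gave 132 of the 176 V segments in the table, out of 52636 genes in all. The members were 99 of 128 Trav segments, 22 of 35 Trbv, 4 of 6 Trdv and all 7 gamma V segments (named Trgv or Tcrg-V, and called Trg V here). Because the rule used summed counts, detection itself is a description and carries no test.

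RNA was sequenced from 2 sorted populations with 3 libraries each, KLRG1-positive ILCs (KLRG1-high in the sort protocol) and KLRG1-negative ILCs. KLRG1 is a lectin-like receptor of activated group 2 ILCs (ILC2) and of some NK and T cells. Both populations came from lungs of wild-type C57BL/6 mice with the 4get reporter, which marks Il4 expression by green fluorescent protein. All mice had been injected intraperitoneally with 500 ng of recombinant IL-33, an alarmin that activates ILC2, for 4 days and were killed on day 5. Both sorts were lineage-negative and CD90-positive, with a stated purity above 90%. Which lineage markers were used is not given. Nothing in the labels says that samples of the same population were from different mice, and p-values then describe the spread among these samples alone, which can be technical.

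Each T cell receptor chain is assembled during T cell development, when the RAG recombinase cuts beside a V segment and a joining (J) segment, with a diversity (D) segment between them in the beta and delta chains, and the ends are joined. The assembled exon is spliced to a constant (C) gene. Alpha and beta chains form the receptor of conventional T cells, and gamma and delta chains that of gamma-delta T cells. The Trdv segments, the D and J segments of delta and its C gene lie inside the alpha locus, so that joining a Trav to a Traj segment deletes them. Trav segments with dv in their names are shared with the delta chain and are counted here with the alpha segments. Unrearranged V, J and C genes can also be transcribed by themselves, as germline transcripts, and a count of reads over a V segment does not separate these from assembled receptors.

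The coding ends of the segments that carry the results are shown first, since this is where a V segment is joined. The sequences come from the GENCODE M21 transcripts (GRCm38), give the last 48 coding bases of the unrearranged segment 5′ to 3′ on the coding strand, and have in capitals the codon of the conserved cysteine that starts the third complementarity-determining region. It was located as the last in-frame cysteine codon with a tyrosine codon 2 codons before it. Trdv4 (chr14:54074905-54075515, plus strand) and Tcrg-V5 (chr13:19192278-19192725, plus strand) had higher levels in every KLRG1-positive library than in any KLRG1-negative library. Tcrg-V1 (chr13:19339989-19340454, plus strand) overlapped between the groups, and Trgv2 (chr13:19336573-19337167, minus strand) was lower in every KLRG1-positive library. Trbv15 (chr6:41141188-41141658, plus strand) passed the adjusted threshold of the unpaired edgeR fit, a call that was not stable. Trbv13-2 (chr6:41121396-41121832, plus strand) was the Trbv segment with the highest level per length, and Trav17 (chr14:53806639-53807115, plus strand) took the largest part of the Trav counts in KLRG1-positive library 3.
Trdv4: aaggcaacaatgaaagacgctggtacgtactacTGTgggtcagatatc
Tcrg-V5: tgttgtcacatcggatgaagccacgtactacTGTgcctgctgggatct
Tcrg-V1: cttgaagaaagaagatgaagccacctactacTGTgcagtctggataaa
Trgv2: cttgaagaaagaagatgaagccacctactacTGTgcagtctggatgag
Trbv15: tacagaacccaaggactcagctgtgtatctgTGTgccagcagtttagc
Trbv13-2: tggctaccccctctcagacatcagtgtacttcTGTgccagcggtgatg
Trav17: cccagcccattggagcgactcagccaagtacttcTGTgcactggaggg
The ends of Tcrg-V1 and Trgv2 had the same base at 46 of 48 positions, and the first 45 bases, which include the cysteine codon, were identical. Over the whole coding sequence Tcrg-V1 was 95.1% identical to Trgv2. Reads that align equally well to both had been left out by the authors' counting.

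The libraries held 17323004, 19042555 and 23421426 assigned counts in KLRG1-positive cells and 17898268, 23946073 and 21723304 in KLRG1-negative cells. Klrg1, which separated the sorts, had 1482, 1782 and 1324 CPM (counts over the TMM-scaled library size, times a constant) in the KLRG1-positive libraries, against 13.1, 192 and 73.1 CPM in the KLRG1-negative libraries. The summed level of 18 T cell markers was 1789 to 2234 CPM in KLRG1-positive and 3234 to 10510 CPM in KLRG1-negative libraries. Cd4 among them was at 0 counts in 2 KLRG1-positive and 2 KLRG1-negative libraries. The co-receptor genes Cd8a and Cd8b1 were lower in every KLRG1-positive library. Cd8a had 747, 65 and 169 counts in the KLRG1-positive libraries, against 12122, 7963 and 4006 in the KLRG1-negative libraries. Cd8b1 had 1295, 53 and 389 counts in the KLRG1-positive libraries, against 22384, 11388 and 5314 in the KLRG1-negative libraries. In bulk samples fewer cells of a type and less RNA per cell cannot be told apart.

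The number of segments and their division among the loci differed between the groups. V segments took 2929, 3818 and 3093 counts in the KLRG1-positive libraries and 20363, 13184 and 6381 counts in the KLRG1-negative libraries. At least 1 count was found for 103, 47 and 49 of the 132 members in the KLRG1-positive libraries, against 131, 125 and 121 in the KLRG1-negative libraries. Scaled to the shallowest library by rarefaction the numbers were 103, 45.9 and 45.8 in the KLRG1-positive libraries, and 131, 124.5 and 120.3 in the KLRG1-negative libraries, so the groups were as far apart at equal depth. KLRG1-positive library 1 stood apart from the other two of its group, with more than 50 further segments detected. Without it the KLRG1-positive libraries had at most 49 segments.

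**Figure D1:**
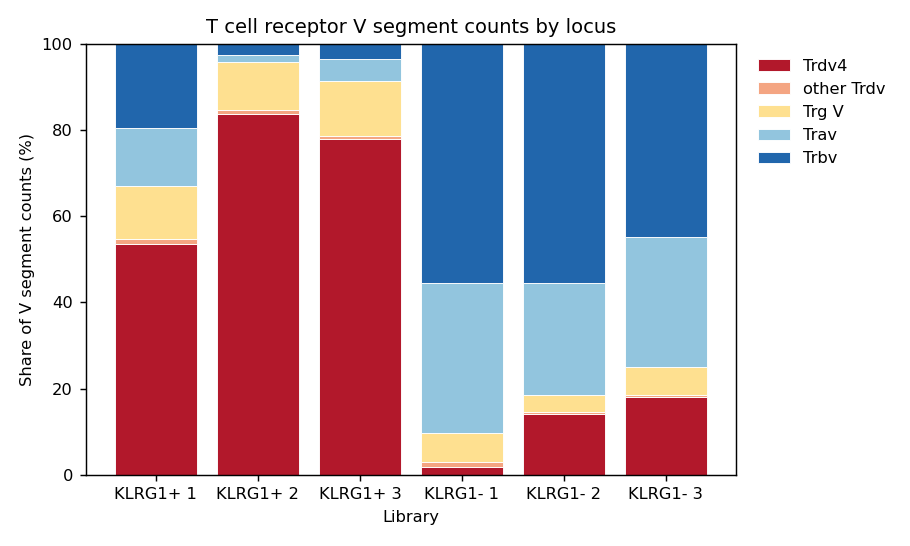
Share of all V segment counts (percent, y axis) taken by Trdv4, the other Trdv segments, Trg V, Trav and Trbv in each library (x axis), KLRG1-positive libraries left and KLRG1-negative libraries right. Trdv4 takes 53.5 to 83.8% of the bar in the KLRG1-positive libraries and 1.82 to 18.0% in the KLRG1-negative libraries.

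Delta segments made up most of the V counts in KLRG1-positive cells, and beta and alpha segments most of them in KLRG1-negative cells. Trdv took 72.7% ± 15.8 (SD, n = 3) of V counts in KLRG1-positive libraries and 12.1% ± 8.13 in KLRG1-negative libraries. Trbv took 8.47% ± 9.53 in KLRG1-positive and 51.9% ± 6.21 in KLRG1-negative libraries, and Trav took 6.78% ± 6.07 in KLRG1-positive and 30.4% ± 4.37 in KLRG1-negative libraries. Trg V took 12.1% ± 0.758 in KLRG1-positive and 5.70% ± 1.66 in KLRG1-negative libraries. None of these shares overlapped between the groups, and the bars of V counts by locus show it for every library. Shares within a library sum to 100%, so levels are needed to say which loci differed.

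As summed levels, alpha and beta segments were far lower in KLRG1-positive cells, delta was higher, and gamma overlapped. The Trav sum was 22.2, 3.41 and 7.09 CPM in the KLRG1-positive libraries, against 394, 135 and 92.6 CPM in the KLRG1-negative libraries. For Trbv the sums were 32.0, 5.01 and 4.79 CPM in the KLRG1-positive libraries and 626, 288 and 137 CPM in the KLRG1-negative libraries. The KLRG1-negative means were 19.0 times (Trav) and 25.1 times (Trbv) the KLRG1-positive ones. Without KLRG1-positive library 1 they were 39.5 and 71.5 times, and without KLRG1-negative library 1 they were 10.5 and 15.2 times. In both groups library 1 had the highest Trav and Trbv sums.

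The Trdv sum was 90.1, 172 and 108 CPM in the KLRG1-positive libraries, above the 33.4, 75.8 and 56.9 CPM of the KLRG1-negative libraries. For Trg V the sums were 20.2, 22.9 and 17.4 CPM in the KLRG1-positive libraries, and 77.5, 19.7 and 19.8 CPM in the KLRG1-negative libraries. KLRG1-negative libraries 2 and 3 thus lay within the KLRG1-positive range, and library 1 lay above it. No test was made of sums over members.

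**Figure D2:**
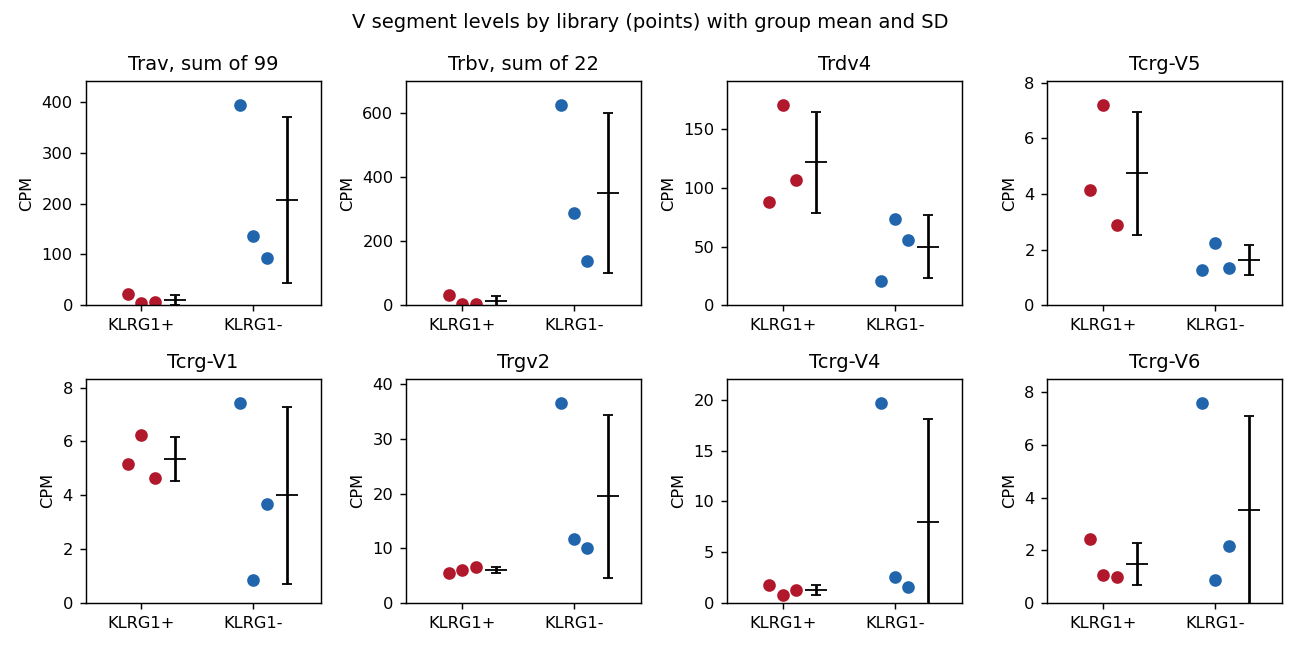
Levels in CPM (y axes, linear and different in each panel) of the Trav and Trbv sums and of 6 single segments, with a point for each library and the group mean with its SD beside the points, KLRG1-positive left and KLRG1-negative right. Trdv4 and Tcrg-V5 have every KLRG1-positive point above the KLRG1-negative points, while the Trav and Trbv sums have every KLRG1-positive point below them.

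Of the 132 members, 78 had enough counts for the edgeR quasi-likelihood test, which was fitted over 15197 genes. They were 51 Trav, 18 Trbv, 2 Trdv and 7 Trg V segments, and many of them reached the test only through their counts in KLRG1-negative libraries. Past an adjusted p of 0.05 there was 1 member lower and 0 members higher in KLRG1-positive cells, where 1.21% of all tested genes were lower and 0.125% higher. An unadjusted p under 0.05 was found for 61 lower and 2 higher members, against 11.5% and 4.19% of all tested genes. The libraries of the groups did not overlap for 64 members that were lower and 2 that were higher, against 15.2% and 9.46% of all tested genes. The Wald test of DESeq2 called 53 members lower and 0 higher, against 9.06% and 2.28% of all tested genes. The median log2 fold change of the 78 was -4.59, that of all tested genes -0.05.

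The delta segments are described first. Trdv4 (ENSMUSG00000076867) encodes the delta chain that pairs with the Tcrg-V5 chain on epidermal gamma-delta T cells and with the Tcrg-V6 chain on interleukin-17-producing gamma-delta T cells of lung, skin and reproductive tract. It had 1568, 3201 and 2408 counts in the KLRG1-positive libraries, which is 88.1, 171 and 107 CPM, against 371, 1869 and 1151 counts or 20.6, 73.5 and 55.2 CPM in the KLRG1-negative libraries. All KLRG1-positive levels lay above all KLRG1-negative levels, with the lowest KLRG1-positive and the highest KLRG1-negative library close to each other. Its log2 fold change, 1.29 ± 0.51 (SE, n = 3 each), did not pass the edgeR quasi-likelihood test (adjusted p = 0.293). Trdv4 was higher in the KLRG1-positive library of all 3 replicate numbers. With the replicate number as a block its log2 fold change was 1.42, which did not pass with edgeR (adjusted p = 0.127) and passed with DESeq2, an alternative chosen after seeing the data (adjusted p = 0.000355).

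A single segment thus held most V counts of a KLRG1-positive library. Trdv4 was 53.5% of V counts in KLRG1-positive library 1 (95% exact binomial interval 51.7 to 55.4%), 83.8% in library 2 and 77.9% in library 3. In the KLRG1-negative libraries it was 1.82%, 14.2% and 18.0% of V counts. It still had the most counts of any segment in KLRG1-negative libraries 2 and 3, while in KLRG1-negative library 1 there were 14 segments with more, led by Trbv13-2. Per length, Trdv4 was the highest of all members in both groups, with a mean of 274 RPKM (CPM per kilobase of gene length) in KLRG1-positive and 112 RPKM in KLRG1-negative cells.

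The last 300 of the 345 coding bases of the unrearranged Trdv4 segment, with the conserved cysteine codon in capitals, are shown because the segment dominated the counts.
Trdv4 coding sequence: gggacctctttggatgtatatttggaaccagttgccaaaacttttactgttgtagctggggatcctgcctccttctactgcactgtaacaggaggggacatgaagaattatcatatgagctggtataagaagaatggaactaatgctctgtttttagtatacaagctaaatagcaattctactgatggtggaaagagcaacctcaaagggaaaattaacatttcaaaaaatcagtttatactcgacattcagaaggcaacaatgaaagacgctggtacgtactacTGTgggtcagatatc

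The constant and joining genes of delta did not follow Trdv4. Trdc, the delta constant gene, had 152, 82 and 74 counts in the KLRG1-positive libraries, against 2266, 703 and 352 counts in the KLRG1-negative libraries. The log2 fold change of Trdc was -3.39 ± 0.89 (SE, n = 3 each; edgeR quasi-likelihood adjusted p = 0.127), opposite in sign to that of Trdv4. Trdj1, the joining segment nearest to Trdv4, had 6, 0 and 2 counts in the KLRG1-positive libraries and 42, 8 and 7 counts in the KLRG1-negative libraries. Per length, the Trdv4 level was 89.8, 340 and 283 times that of Trdc in the KLRG1-positive libraries, and 1.42, 23.1 and 28.5 times in the KLRG1-negative libraries. These ratios depend on the gene lengths, 444 bases for Trdv4 and 3865 for Trdc. By counts Trdv4 lay above Trdc in every library but KLRG1-negative library 1, where it had 371 against 2266.

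Among the Trav and Trdv members upstream of the delta genes, Trdv4 lay closest to them. The distance was 38.0 kb to Trdd1, 47.6 kb to Trdj1 and 67.3 kb to Trdc. An antisense gene, Gm30275, spans Trdv4 on the opposite strand but shares 0 exon bases with it, and had 27 counts over all libraries. The kit does not mark strand, so transcription of Trdv4 and of the opposite strand of its exons cannot be told apart.

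**Figure D3:**
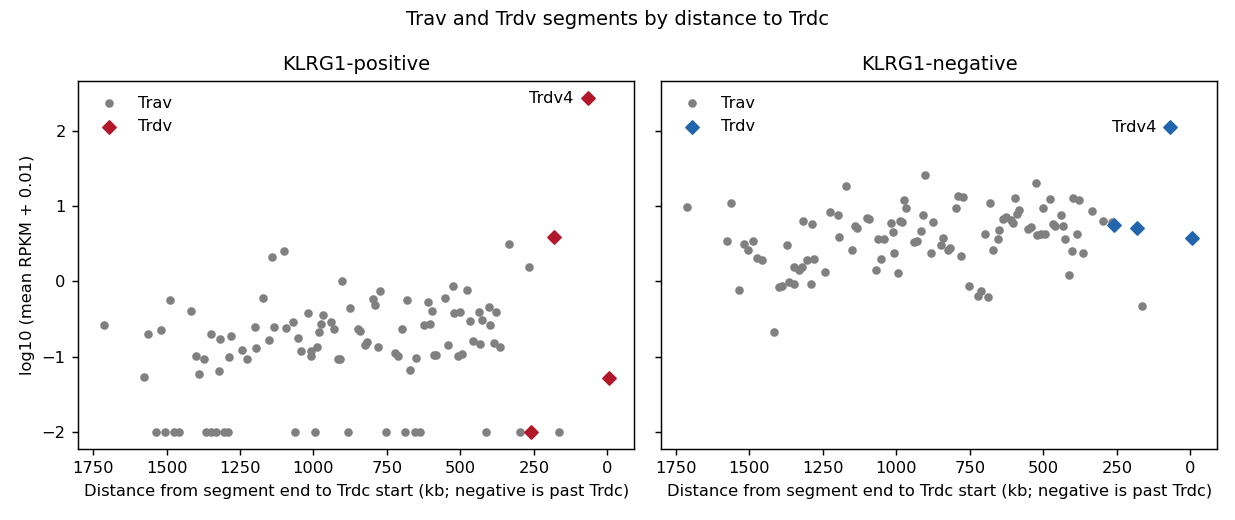
Mean level of each Trav and Trdv member as log10 of RPKM plus 0.01 (y axis) against the distance in kb from the segment's end to the start of Trdc (x axis, upstream to the left; members at 0 counts lie at -2). Trdv4, 67.3 kb before Trdc, stands above all other segments of the locus in KLRG1-positive cells (left) and in KLRG1-negative cells (right).

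The other delta segments were low. Trdv2-2 had 35, 30 and 24 counts in the KLRG1-positive libraries, against 67, 49 and 11 counts in the KLRG1-negative libraries, and overlapped. Its log2 fold change of -0.41 ± 0.84 did not pass the edgeR quasi-likelihood test (adjusted p = 0.895), and it shares 105 exon bases with the antisense gene Gm43647. Trdv1 had 0 counts in every KLRG1-positive library and 94, 3 and 8 counts in the KLRG1-negative libraries. With 3 counts over the group as the floor for a count of 0, Trdv1 was at least 32.2-fold lower in the KLRG1-positive group, and most of the KLRG1-negative counts were from library 1. Trdv5, which lies in inverted orientation downstream of Trdc and shares 207 exon bases with it in the gene models, had 1, 0 and 0 counts in the KLRG1-positive libraries, against 70, 5 and 17 in the KLRG1-negative libraries.

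The gamma segments, which lie on chromosome 13 in 4 clusters with a constant gene each, did not move together. Tcrg-V5 (ENSMUSG00000076747), the V gene of epidermal gamma-delta T cells, had 4.16, 7.20 and 2.88 CPM in the KLRG1-positive libraries, against 1.28, 2.24 and 1.34 CPM in the KLRG1-negative libraries. Its groups did not overlap, with a log2 fold change of 1.54 ± 0.62 (SE, n = 3 each), which did not pass the edgeR quasi-likelihood test (adjusted p = 0.301). It was 31.5% of Trg V counts in KLRG1-positive library 2, where no gamma segment had more. It is the V segment nearest to the joining segment of its cluster, 17.6 kb before Trgj1.

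Trgv2, the V gene of the Tcrg-C2 cluster, took the opposite direction. It had 5.45, 5.97 and 6.51 CPM in the KLRG1-positive libraries, against 36.6, 11.7 and 10.1 CPM in the KLRG1-negative libraries. These groups did not overlap, and the log2 fold change of -1.70 ± 0.59 did not pass the edgeR quasi-likelihood test (adjusted p = 0.230). Without KLRG1-negative library 1 it was -0.86. In the KLRG1-negative libraries Trgv2 was 47.3%, 59.5% and 51.2% of Trg V counts. Its constant gene Tcrg-C2 had 9.61, 2.83 and 4.39 CPM in the KLRG1-positive libraries and 84.3, 17.9 and 16.0 CPM in the KLRG1-negative libraries.

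Tcrg-V1, a V gene of lymphoid gamma-delta T cells that lies 1.70 kb from Trgj4, had 5.17, 6.24 and 4.65 CPM in the KLRG1-positive libraries and 7.44, 0.866 and 3.69 CPM in the KLRG1-negative libraries. The KLRG1-negative libraries lay on both sides of the KLRG1-positive range. Its constant gene Tcrg-C4 had 445, 306 and 376 CPM in the KLRG1-positive libraries, against 67.1, 107 and 166 CPM in the KLRG1-negative libraries, with a log2 fold change of 1.73 ± 0.36 (edgeR quasi-likelihood adjusted p = 0.0787). The overlap of Tcrg-V1 came from KLRG1-negative library 1, the other two of that group lying below every KLRG1-positive library. Without that library its log2 fold change was 1.24, against 0.42 with all libraries (edgeR quasi-likelihood adjusted p = 0.565 and 0.881). Per length Tcrg-V1 reached 0.0306, 0.0537 and 0.0326 of the Tcrg-C4 level in the KLRG1-positive libraries, and 0.292, 0.0212 and 0.0585 in the KLRG1-negative libraries.

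The remaining gamma segments overlapped between the groups. Tcrg-V4, used by interleukin-17-producing and other gamma-delta T cells of lung and lymph nodes, had 31, 15 and 28 counts in the KLRG1-positive libraries, against 355, 65 and 33 in the KLRG1-negative libraries. Its log2 fold change was -2.65 ± 1.10 (edgeR quasi-likelihood adjusted p = 0.319), and without KLRG1-negative library 1 it was -0.70. Tcrg-V6, the partner of Trdv4 in lung gamma-delta T cells, had 43, 20 and 22 counts in the KLRG1-positive libraries, against 137, 22 and 45 in the KLRG1-negative libraries. Tcrg-V7, used by intestinal intraepithelial gamma-delta T cells, had 9, 3 and 6 counts in the KLRG1-positive libraries, against 25, 31 and 0 in the KLRG1-negative libraries. Tcrg-V3 had 14, 27 and 20 counts in the KLRG1-positive libraries, against 61, 6 and 18 in the KLRG1-negative libraries. An antisense gene, Gm31887, spans Tcrg-V4 to Tcrg-V7 and shares 79 exon bases with Tcrg-V4 and 0 with the other 3. It had 47, 68 and 54 counts in the KLRG1-positive libraries and 10, 26 and 11 counts in the KLRG1-negative libraries, the same order of groups as Tcrg-V5, and its part in the Tcrg-V5 counts was not tested.

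Beta segments were lower in KLRG1-positive cells as groups, though not for every pair of libraries. Trbv2, which was too low in some libraries to be tested, and Trbv24 overlapped between the groups. Fitted without the filter on low counts, all 22 Trbv members had negative log2 fold changes. All 18 tested Trbv members had negative log2 fold changes, from -7.38 to -2.33 with a median of -4.71, and 17 of the 18 did not overlap between the groups, against 15.2% of all tested genes that were lower without overlap. Trbv15 (ENSMUSG00000076472) was the only member past the threshold, with 14, 4 and 3 counts in the KLRG1-positive libraries against 381, 550 and 253 counts in the KLRG1-negative libraries. The log2 fold change of Trbv15 was -5.60 ± 0.83 (SE, n = 3 each; edgeR quasi-likelihood adjusted p = 0.0449). Unlike most Trbv segments, it had similar levels in all KLRG1-negative libraries, at 57.2, 58.5 and 32.8 RPKM.

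The call on Trbv15 was not stable. With the replicate number as a block its edgeR quasi-likelihood adjusted p was 0.0680, and Trbv12-2 passed instead (log2 fold change -4.89 ± 1.06 and adjusted p 0.0831 without the block, 0.0494 with it), where 0.349% of all tested genes were lower. Leaving out single libraries, Trbv15 kept an adjusted p under 0.05 only without KLRG1-positive library 1. Over 15 alternative edgeR fits its adjusted p ranged between 0.0287 and 0.346. Its log2 fold change stayed between -6.67 and -5.07.

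Per length, Trbv13-2, Trbv12-2 and Trbv13-1 had the highest mean levels of the locus. Trbv13-2, used with Trav11 by invariant NKT cells and also common in conventional T cells, had 52, 38 and 13 counts in the KLRG1-positive libraries, against 1128, 643 and 199 counts in the KLRG1-negative libraries. Trbv12-2 had 45, 10 and 8 counts in the KLRG1-positive libraries and 1121, 668 and 254 in the KLRG1-negative libraries. Trbv13-1 had 57, 14 and 0 counts in the KLRG1-positive libraries and 980, 517 and 350 in the KLRG1-negative libraries. The other beta segments of invariant NKT cells, Trbv29 and Trbv1, and Trbv19 of mucosal-associated invariant T cells stood at the same order, with 33, 100 and 45 counts summed over the KLRG1-positive libraries against 628, 1164 and 1762 over the KLRG1-negative ones.

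**Figure D4:**
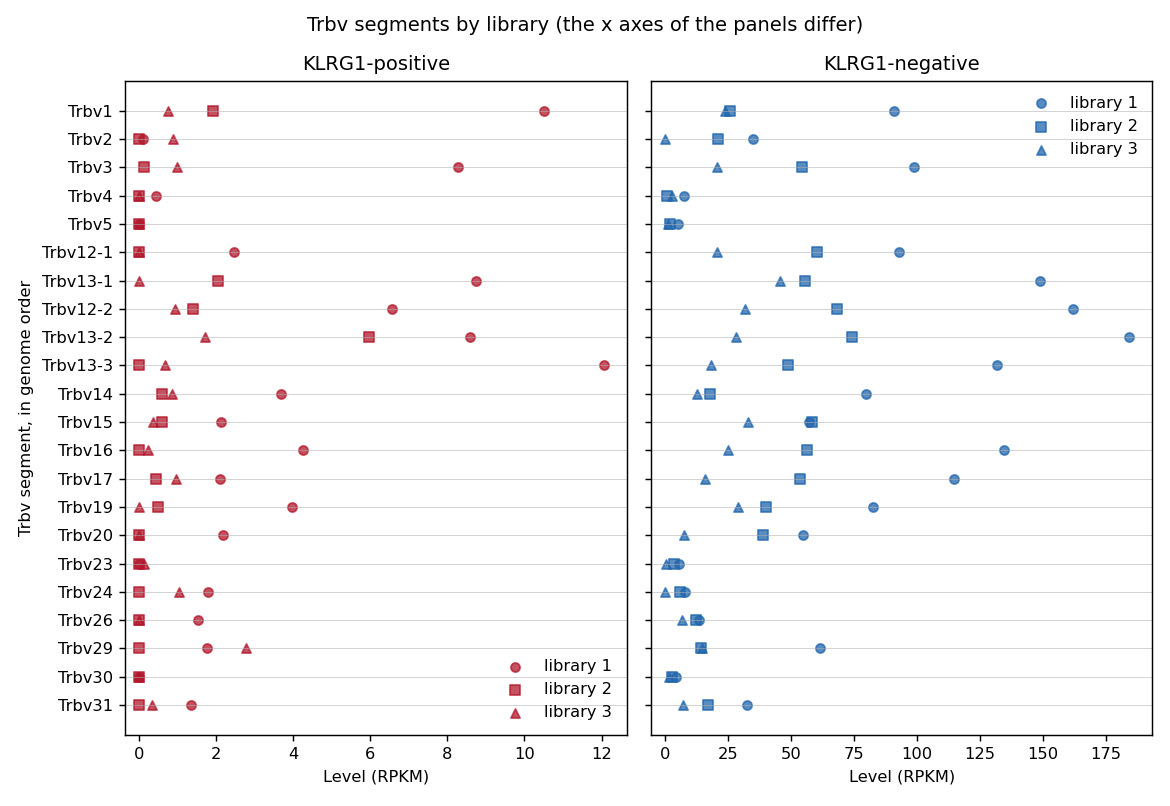
Levels in RPKM (x axes, which differ between the panels) of the 22 Trbv members in genome order (y axis), with a symbol for each library, KLRG1-positive left and KLRG1-negative right. The KLRG1-positive panel ends near 12 RPKM and has many segments at 0, while in the KLRG1-negative panel Trbv13-2 reaches 184 RPKM and library 1 is highest for nearly every segment.

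Which beta segment led differed from library to library in KLRG1-positive cells. It was Trbv1 with 78 of 570 Trbv counts in library 1, Trbv13-2 with 38 of 94 in library 2 (40.4%, exact binomial interval 30.4 to 51.1%), and Trbv29 with 22 of 108 in library 3. In KLRG1-negative cells the leading segments were Trbv13-2, Trbv12-2 and Trbv13-1, each with 9.13 to 12.3% of the Trbv counts of its library. Across the 22 members, the counts of the KLRG1-negative libraries ranked alike, with Spearman correlations of 0.89, 0.82 and 0.83 between pairs of libraries. Between KLRG1-positive libraries they were 0.65, 0.26 and 0.30, over totals of 94 to 570 counts; these are descriptions across segments that share gene length and mappability. Trbv2 stood out in KLRG1-negative library 3, with 0 of 2852 Trbv counts, which allows a share of up to 0.105%, against 352 and 300 counts in libraries 1 and 2 (3.12% and 4.10%). In the KLRG1-positive libraries Trbv2 had 1, 0 and 11 counts. Trbv2 was singled out after its values were seen.

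The beta constant genes and the summed beta joining segments stood in contrast to the beta V segments. Trbc1 had 280, 449 and 328 CPM in the KLRG1-positive libraries, within or near the 507, 448 and 259 CPM of the KLRG1-negative libraries, and Trbc2 had 598, 753 and 648 CPM in the KLRG1-positive libraries, against 1336, 979 and 538 CPM in the KLRG1-negative libraries. Their log2 fold changes were -0.20 ± 0.31 and -0.51 ± 0.34 (edgeR quasi-likelihood adjusted p = 0.852 and 0.566). The 14 Trbj segments summed to 153, 236 and 171 CPM in the KLRG1-positive libraries, against 136, 182 and 104 CPM in the KLRG1-negative libraries. Trbj1-1 alone had 45.6, 87.8 and 65.1 CPM in the KLRG1-positive libraries and 14.2, 52.9 and 29.2 CPM in the KLRG1-negative libraries, which overlap. The 7 Trbj1 segments summed to 107, 192 and 134 CPM in the KLRG1-positive libraries, against 65.2, 132 and 73.1 CPM in the KLRG1-negative libraries. For the 7 Trbj2 segments the sums were 45.8, 43.7 and 37.0 CPM in the KLRG1-positive libraries, against 71.1, 49.8 and 30.7 CPM in the KLRG1-negative libraries. Both sums overlapped between the groups. Per 100 RPKM of Trbc1 and Trbc2 together, the Trbv segments had 6.66, 0.798 and 0.906 RPKM in the KLRG1-positive libraries, against 61.6, 36.4 and 30.9 RPKM in the KLRG1-negative libraries. Beta V segments were low in KLRG1-positive cells relative to beta constant transcripts that were still abundant there.

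**Figure D5:**
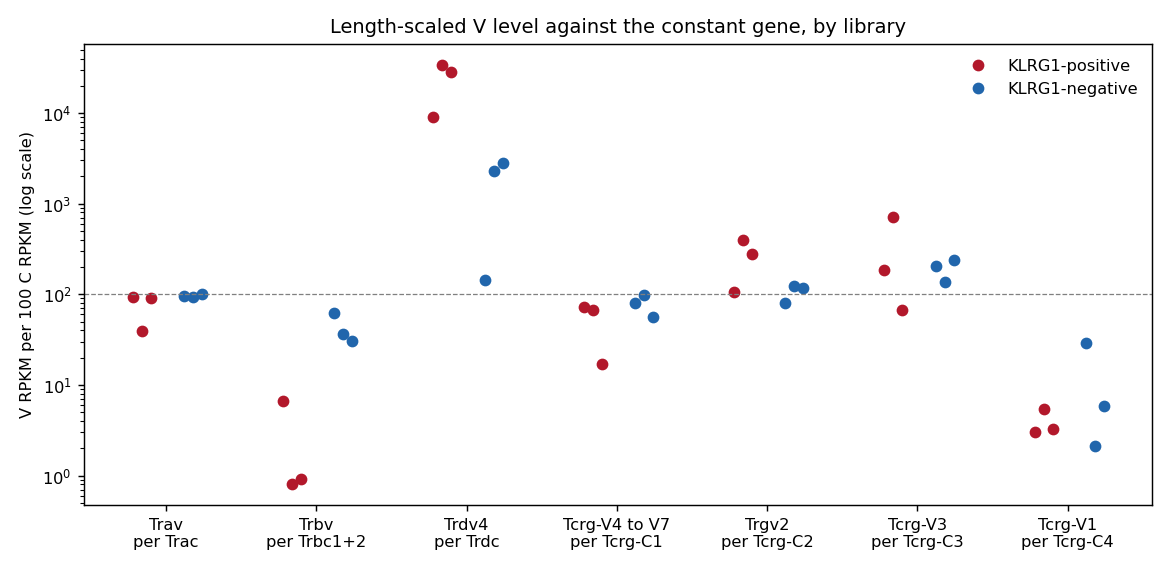
Length-scaled V level per 100 RPKM of the constant gene (y axis, log scale) for the alpha, beta and delta loci and the 4 gamma clusters, with a point for each library, KLRG1-positive left of KLRG1-negative in each pair; the dashed line is at 100. Trav per Trac is near 100 in 5 of 6 libraries, Trbv per Trbc is at 0.798 to 6.66 in KLRG1-positive and 30.9 to 61.6 in KLRG1-negative libraries, and Trdv4 lies above Trdc in all 6.

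Alpha V segments stayed closer to their constant gene than beta ones did. Relative to Trac they were still lower in every KLRG1-positive library, most so in library 2, which had 64 Trav counts. Trac had 1054, 387 and 458 counts in the KLRG1-positive libraries, against 17554, 8799 and 4611 in the KLRG1-negative libraries (log2 fold change -3.94 ± 0.77, edgeR quasi-likelihood adjusted p = 0.0689, and 0.0409 with the replicate block). Per 100 RPKM of Trac, the Trav members summed to 92.9, 38.9 and 91.8 RPKM in the KLRG1-positive libraries, against 96.5, 94.5 and 100.1 RPKM in the KLRG1-negative libraries. The 60 Traj segments summed to 69, 16 and 21 counts in the KLRG1-positive libraries and to 1167, 624 and 364 counts in the KLRG1-negative libraries.

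All 51 tested Trav members had negative log2 fold changes, from -8.85 to -1.34 with a median of -4.75, none past the adjusted threshold of the edgeR quasi-likelihood test, and 46 of the 51 did not overlap, against 15.2% of all tested genes. These 51 are the Trav members that passed the filter on low counts. Fitted without the filter, Trav6d-3 alone of the 99 had a positive log2 fold change, with 4, 3 and 1 counts in the KLRG1-positive libraries and 4, 0 and 0 counts in the KLRG1-negative libraries, which overlap. At 0 counts in all KLRG1-positive libraries were 19 Trav members, 17 of them too low to test. Trav19 had 73, 35 and 62 counts in the KLRG1-negative libraries, a level at least 52.1-fold lower in the KLRG1-positive group, and Trav14d-3-dv8 had 45, 39 and 21, at least 32.2-fold lower. Trav12d-2 and Trav15-1-dv6-1, with 2 counts each in KLRG1-positive library 1 and 0 in the other two, had 225 and 210 counts over the KLRG1-negative libraries. Their KLRG1-positive levels were thus 0.00116 to 0.0353 and 0.00125 to 0.0379 of the KLRG1-negative levels (95% counting intervals). Trbv30, which like these fell among the 5 most negative members, had 0 counts in KLRG1-positive cells and 27, 24 and 12 in the KLRG1-negative libraries.

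Per length Trav12n-3, Trav12-2 and Trav3d-3 led the locus. Trav12n-3 had 18, 1 and 0 counts in the KLRG1-positive libraries, against 322, 197 and 44 in the KLRG1-negative libraries. Trav12-2 had 15, 3 and 2 counts in the KLRG1-positive libraries and 323, 151 and 49 in the KLRG1-negative libraries. For Trav3d-3 the counts were 7, 6 and 1 in the KLRG1-positive libraries and 262, 179 and 50 in the KLRG1-negative libraries. In no KLRG1-negative library did a Trav segment exceed 5.73% of the Trav counts, and the leaders there were Trav12-2, Trav12n-3 and Trav14n-3.

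In KLRG1-positive cells a few Trav segments were concentrated in single libraries. Trav17 had 73 of the 160 Trav counts of library 3 (45.6%, exact binomial interval 37.7 to 53.7%) and 0 in libraries 1 and 2, against 92, 39 and 46 counts in the KLRG1-negative libraries, where it was 1.13 to 2.38% of Trav counts. In library 3 a further 36 Trav counts fell on Trav21-dv12, which had 1 and 0 in the other KLRG1-positive libraries. In library 1 Trav8d-2 led with 44 of 395 counts, and Trav5d-4 had 39, where the other KLRG1-positive libraries had 0 and 2 for Trav8d-2 and 0 and 0 for Trav5d-4. These made the log2 fold changes of Trav17, Trav21-dv12, Trav8d-2 and Trav5d-4 the least negative of the named Trav segments, at -1.44, -1.98, -1.45 and -1.34. Without KLRG1-positive library 3 the log2 fold change of Trav17 was -8.87, and without KLRG1-positive library 1 that of Trav8d-2 was -5.48. Trav21-dv12 and Trav5d-4 were singled out after their values were seen.

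The alpha segments of invariant T cells were present at low counts. Trav11d, a copy of the V segment of the invariant NKT cell receptor, had 3, 0 and 0 counts in the KLRG1-positive libraries, against 74, 43 and 15 counts in the KLRG1-negative libraries. The ratio of the KLRG1-positive to the KLRG1-negative level had a 95% counting interval of 0.00503 to 0.0738. Traj18, the joining segment of the same receptor, had 7, 0 and 0 counts in the KLRG1-positive libraries and 96, 63 and 22 in the KLRG1-negative libraries. Trav11 itself had 9 counts in all and fell just below the minimum, and its closest copy, Trav11d, is 100% identical over the coding sequence. Trav1, the V segment of mucosal-associated invariant T cells, had 5, 0 and 0 counts in the KLRG1-positive libraries, against 148, 69 and 0 in the KLRG1-negative libraries, so that KLRG1-negative library 3 lacked a segment that was 2.09% and 2.01% of Trav counts in libraries 1 and 2. A count of 0 among 1930 allows a share of up to 0.155%.

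Many Trav segments exist as near-identical copies from the internal duplications of the locus, marked d and n in their names, and reads that fit several copies equally well had been left out. Of the 99 Trav members, 48 had another Trav segment at least 98% identical, with a median of 108.5 counts, against a median of 109 for the other 51. Of the 14 functional Trav segments under 10 counts, 12 had such a copy. Counts of single duplicated Trav segments are therefore uncertain, while Trbv15, Trbv13-2 and Trdv4 have no copy at that identity. The members just inside the minimum were Trav23 with 10 counts, all in KLRG1-negative library 3, and Trav6d-3 with 12. Just outside were Trav11, Trav3n-3 and Trbv12-3 with 9 counts each.

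The genes that act with the V segments were counted by list. Over all tested genes, an adjusted p under 0.05 was found for 1.21% as lower and 0.125% as higher, and an unadjusted p under 0.05 for 11.5% and 4.19%. Of the 13 V(D)J recombination genes, 10 were tested and 0 passed the edgeR quasi-likelihood test in either direction. An unadjusted p under 0.05 was reached by 2 genes, both lower, Dntt and Dclre1c. Dntt had 1, 0 and 0 counts in the KLRG1-positive libraries, against 22, 295 and 74 in the KLRG1-negative libraries. Its log2 fold change was -7.86 ± 1.55 (edgeR quasi-likelihood adjusted p = 0.0702). That of Dclre1c was -0.73 ± 0.28 (adjusted p = 0.282 in the same edgeR fit). Rag1 and Rag2, the recombinase itself, had 0 counts in every library. Of the 8 constant genes, 0 passed, and an unadjusted p under 0.05 was reached by 3 lower and 1 higher gene. Of the 5 CD3 and zeta chain genes, which carry the receptor's signal, 0 passed, and 3, all lower, had an unadjusted p under 0.05. Cd3e had 38.9, 8.80 and 12.5 CPM in the KLRG1-positive libraries, against 797, 239 and 148 CPM in the KLRG1-negative libraries, an order like that of the Trav and Trbv sums. Cd3g, in contrast, had 148, 313 and 248 CPM in the KLRG1-positive libraries and 738, 367 and 261 CPM in the KLRG1-negative libraries.

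Markers of T cells and of other cell types were counted in the same edgeR fit, in which 1.21% of all tested genes were lower and 0.125% higher. An unadjusted p under 0.05 was found in this fit for 11.5% of all tested genes as lower and 4.19% as higher. As lower it was reached by 11 of 17 T cell markers, 7 of 11 gamma-delta T cell markers and 5 of 9 NKT and MAIT cell markers. As higher it was reached by 0, 1 and 0 of them. Of 17 tested T cell markers 2 fell, Cd28 (log2 fold change -3.57 ± 0.51) and Ccr7 (-3.85 ± 0.55), each at adjusted p = 0.0430 in the edgeR quasi-likelihood test, and 0 rose. Of 11 tested gamma-delta T cell markers 1 fell, the kinase gene Blk (-4.36 ± 0.56, adjusted p = 0.0365 in the same edgeR fit), and Il17a and Sox13 overlapped between the groups. Maf, a transcription factor gene of the same list, lay higher in every KLRG1-positive library, at 131 to 146 CPM against 31.0 to 71.9 CPM in the KLRG1-negative libraries (log2 fold change 1.31 ± 0.34), and did not pass (edgeR quasi-likelihood adjusted p = 0.120). The summed gamma-delta list had 207 to 299 CPM in KLRG1-positive and 380 to 893 CPM in KLRG1-negative libraries. Among the KLRG1-negative libraries Blk was highest in library 3 (73.2, 55.9 and 124 CPM). The sum of the B cell markers was also highest there (539, 644 and 4215 CPM), while Trdc was highest in library 1 (126, 27.7 and 16.9 CPM). Which cells the Blk counts came from was not tested. Of 9 tested NKT and MAIT cell markers 1 fell, Sh2d1a, and the sums were 181 to 223 CPM in KLRG1-positive and 443 to 759 CPM in KLRG1-negative libraries. With the replicate block the edgeR test no longer called Cd28, Ccr7 and Sh2d1a (adjusted p = 0.0526, 0.0914 and 0.0738) and called Cd3e, Cd3d, Themis and Il23r (0.0468, and 0.0494 for each of the other 3), all lower, and Blk kept its call. With the block 0.349% of all tested genes were lower. The part of these cell types in the V segment levels was not tested.

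For the remaining lists, the shares of all tested genes with an unadjusted p under 0.05 were again 11.5% lower and 4.19% higher, and 0.349% were lower with the block. Of these lists, 0 of 9 NK and ILC1 markers and 0 of 8 B cell markers passed the edgeR quasi-likelihood test, though 4 and 6 of them, all lower, had an unadjusted p under 0.05. With the replicate block in the edgeR fit, 1 of the NK and ILC1 markers (Tbx21, adjusted p = 0.0425) and 4 of the B cell markers passed, all lower. All 5 fibroblast markers fell, 1 of them (Lum) also with the block. Their sum was 23.3, 18.9 and 4.65 CPM in the KLRG1-positive libraries, against 3789, 6586 and 10640 CPM in the KLRG1-negative libraries. What this says of the cells in the KLRG1-negative sort was not tested. Of the 10 ILC2 markers, which include the sorted gene Klrg1, 0 passed. Without Klrg1, a choice made after seeing the data, 3 of the other 9, all higher, had an unadjusted p under 0.05, and the sum of the 9 was 6381 to 7558 CPM in KLRG1-positive and 1474 to 3616 CPM in KLRG1-negative libraries. KLRG1-negative library 1 had both the lowest ILC2 marker sum and the highest Trav and Trbv sums of its group.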

How the data were processed

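Gene expression was measured in 6 libraries made with a low-input full-length cDNA kit and Nextera XT, per the labels' protocols. The deposited table holds raw read counts made by the authors with featureCounts, and per the file headers reads were counted singly, without strand, on Ensembl gene models of GRCm38, without multi-mapping or ambiguous reads. STAR 2.4.1d and Subread 1.5.2 are named in the submitters' processing notes. Multi-mapping alignments were 26.3 to 32.3% of a library. Gene lengths are a further deposited column, used for RPKM. Symbols came from GENCODE M21 (GRCm38), which held 52489 of the 52636 identifiers, and coordinates from the deposited table.

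Counts were tested with edgeR 4.0.16 in R 4.3.3 (quasi-likelihood F test, robust dispersion, TMM, filterByExpr), two-sided, with Benjamini-Hochberg adjustment over all 15197 genes tested and a threshold of 0.05. Fold changes are KLRG1-positive over KLRG1-negative. DESeq2 1.42.0 was an alternative. Intervals (95%) and the floor of 3 counts for a count of 0 reflect counting error alone, because reads copied by PCR are not separate molecules.

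Same-numbered libraries deviated together from their group means (correlations across genes 0.38, 0.34 and 0.19). The replicate numbers were therefore read as pairing the samples, from the data and not from the labels. The p-values given without mention of the block come from fits that left this pairing out. Members and gene lists were chosen with earlier results of these data known. Segments were named by locus rank per length, largest fold changes among members with 50 or more counts, most counts in a library, the adjusted threshold, use by invariant T cells, and all Trg V.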

Additional observations from a re-analysis of the deposited data

How the results depend on the processing

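For 28 named segments, 423 of 474 values under alternative settings kept the direction and the side of the threshold, 34 passed where the first fit had not, 10, all of Trbv15, lost the call, and 7 changed sign. The log2 fold changes that changed sign were those of Tcrg-V1 (-0.10 to 1.28 when libraries were left out), Tcrg-V3 (0.12 with the replicate block, 0.13 with DESeq2 and the block, -1.27 to 1.11 when libraries were left out) and Trdv2-2 (-0.86 to 0.33 when libraries were left out). Genes called higher and lower numbered 19 and 184, and 37 and 282 without a filter, 11 and 104 with 10 or more counts over the libraries, 346 and 1377 with DESeq2, 0 and 53 with the replicate block, 609 and 1697 with DESeq2 and the block (added after seeing the data). Leaving out libraries gave 0 to 5 higher and 0 to 168 lower. DESeq2 called 53 of the 78 tested members lower, against 9.06% of all tested genes, and with the block 57 lower and Trdv4 higher (adjusted p 0.000355). The block changed no named segment's edgeR call other than those of Trbv15 and Trbv12-2. Scaling by length put the Trg V share at 12.9% in KLRG1-positive cells. Segments with 5 or more counts averaged 30.0 in KLRG1-positive and 119 in KLRG1-negative libraries. With at least 1 count, functional segments alone averaged 120 in KLRG1-negative libraries, against 125.7 for all members. The cause of these shifts was not tested. Low V counts limit single segments most in KLRG1-positive libraries 2 and 3, which had 64 to 160 counts per alpha or beta locus and were not the shallowest libraries.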

Other observations

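Of the 176 V segments, 44 did not reach 10 counts, 29 of them with 0 counts in every library and 15 with 1 to 9. Annotated pseudogenes were 28 of these 44 and 6 of the 132 members. Trbv24, a pseudogene member that was singled out after its values were seen, had 11, 0 and 8 counts in the KLRG1-positive libraries and 51, 53 and 1 counts in the KLRG1-negative libraries, so its groups overlapped where the functional tested Trbv segments did not.

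Trdv4 was not the only gene of the T cell receptor loci to be higher in every KLRG1-positive library. Trgj4 had 23.0, 15.1 and 18.9 CPM in the KLRG1-positive libraries, against 2.94, 5.31 and 8.97 CPM in the KLRG1-negative libraries (log2 fold change 1.73 ± 0.50, edgeR quasi-likelihood adjusted p = 0.159). Trbj2-1 had 26.1, 25.8 and 24.0 CPM in the KLRG1-positive libraries, against 16.0, 15.3 and 12.1 CPM in the KLRG1-negative libraries. Within the 7 Trbj2 segments Trbj2-3 and Trbj2-5 were lower in every KLRG1-positive library, and the other 4 overlapped.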
